A study of Mus musculus with 4 samples.

Results

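The genes described here are 10 mast cell proteases and receptors, taken from 24421 rows of an FPKM table of mouse RNA-seq libraries by exact match of the gene symbol. They are Mcpt1 and Mcpt2 (mucosal mast cell proteases), Mcpt4, Cma1, Tpsb2 and Tpsab1 (connective tissue mast cell proteases), Mcpt8 (a basophil protease), and Cpa3, Kit and Fcer1a (general mast cell markers). All 10 symbols are in the table. The set was chosen from known roles after Mcpt1 and Mcpt2 had stood out in the genotype comparison of these same libraries. Genotype differences of the 10 genes are therefore given as a description, with no test.

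The libraries were made from poly(A) RNA of 4 C57BL/6 mice, 8 weeks old, namely WT-139 and WT-140 with the genotype Usp25+/+, and KO-826 and KO-850 with the genotype Usp25-/-. All 4 mice had been given dextran sulfate sodium (DSS), which injures the gut lining, at 2.5% for 5 days and then plain water for 2 days. No mouse without DSS was analysed here. The labelled tissue is a colon piece of 0.5 cm from near the anus. The sources used here give neither the way the Usp25 allele was inactivated nor whether the mice were littermates.

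Mast cells are granulated cells of mucosae and connective tissue that develop under signals through the receptor KIT. Their granules hold chymases, tryptases and carboxypeptidase A3 bound to proteoglycan, and crosslinking of IgE on the receptor FcεRI releases them. In the mouse, mast cells of the gut epithelium are known for the chymases encoded by Mcpt1 and Mcpt2, and those of skin, peritoneum and submucosa for Mcpt4, Cma1, the tryptases and Cpa3.

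The table as a whole sets the frame for these values. Usp25 stood at 38.5 and 16.6 FPKM in the Usp25+/+ mice and at 2.65 and 1.71 FPKM in the Usp25-/- mice, so that it followed the genotype labels. Of 10 colon epithelial markers, 6 stayed below 1 FPKM in all 4 mice, among them Muc2, Zg16, Car1 and Cdx1, while the summed level of 8 lung epithelial markers ran from 2273 to 5210 FPKM. These markers go against the labelled tissue, so colon is used here only as the label, and the gut background given for single genes may not apply to these samples. Mouse WT-139 stood apart through neutrophil genes, with a summed level of 39832 FPKM over 5 neutrophil markers against 691 to 1955 FPKM in the other mice. FPKM values carry no read totals, so the depth behind each value is unknown.

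Promoters of 3 genes at the chymase locus are shown because these neighbours had very different levels. Each is the 250 bases before the gene start from RefSeq (GRCm38.p6), 5′ to 3′ on the gene's strand. They cover chr14:56017714-56017963 on the plus strand for Mcpt1, chr14:56062311-56062560 on the minus strand for Mcpt4 and chr14:56085198-56085447 on the minus strand for Mcpt8. Capitals mark GATAA, the core bound by GATA factors. They also mark TATAAA, the letters of the TATA box. Each motif was searched on both strands, and the 2 did not overlap in these windows.
Mcpt1: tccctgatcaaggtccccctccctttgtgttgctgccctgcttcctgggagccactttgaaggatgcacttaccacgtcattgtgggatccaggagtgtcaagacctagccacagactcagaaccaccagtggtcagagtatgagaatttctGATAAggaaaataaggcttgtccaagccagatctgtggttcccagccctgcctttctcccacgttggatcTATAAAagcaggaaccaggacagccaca
Mcpt4: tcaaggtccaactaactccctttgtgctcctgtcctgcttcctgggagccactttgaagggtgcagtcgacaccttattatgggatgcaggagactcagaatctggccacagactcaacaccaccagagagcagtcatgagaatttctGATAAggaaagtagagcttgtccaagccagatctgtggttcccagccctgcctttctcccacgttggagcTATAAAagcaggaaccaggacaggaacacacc
Mcpt8: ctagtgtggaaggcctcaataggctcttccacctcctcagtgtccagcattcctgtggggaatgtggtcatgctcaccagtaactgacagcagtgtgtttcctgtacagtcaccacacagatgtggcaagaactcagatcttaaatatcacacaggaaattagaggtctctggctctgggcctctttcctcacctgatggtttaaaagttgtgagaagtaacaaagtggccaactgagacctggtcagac

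The Mcpt1 and Mcpt4 stretches were identical at 86.4% of 242 aligned bases. Both held each motif, with GATAA beginning 98 bases before the Mcpt1 start and 102 bases before the Mcpt4 start. The TATA box began 28 and 32 bases before these starts. The Mcpt8 window held neither set of letters. Of 32851 promoter windows of the same length, 22.6% held GATAA, while 12.4% held the TATA box letters. These matches describe the letters and not the use of a site. Of the 10 genes, 7 have a promoter in the RefSeq table, and Mcpt2, Tpsb2 and Tpsab1 do not.

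Mcpt1, a mucosal protease gene, was the most abundant of the 10 genes in every mouse. It stood at 73.8 FPKM in WT-139, 134 FPKM in WT-140, 1428 FPKM in KO-826 and 592 FPKM in KO-850. Both Usp25-/- mice were above both Usp25+/+ mice, and the lower Usp25-/- mouse was 4.43 times the higher Usp25+/+ mouse. The group means were 104 ± 42.3 FPKM in Usp25+/+ and 1010 ± 591 FPKM in Usp25-/- mice (SD, n = 2). On the log2(FPKM + 1) scale the difference was 3.20 ± 0.57 (SE). Ordered by FPKM among all genes, Mcpt1 came 960th in WT-139 and 526th in WT-140, and 41st in KO-826 and 116th in KO-850.

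Mcpt2, the second mucosal chymase gene, stood at 18.4 FPKM in WT-139, 20.7 FPKM in WT-140, 167 FPKM in KO-826 and 79.5 FPKM in KO-850. The groups again did not overlap, and the Usp25+/+ mice lay within 1.13-fold of each other while the Usp25-/- mice differed 2.10-fold. The means were 19.6 ± 1.66 FPKM and 123 ± 61.8 FPKM (SD, n = 2), a log2 difference of 2.50 ± 0.43 (SE). Mcpt1 exceeded Mcpt2 in each mouse, 4.02-fold in WT-139, 6.45-fold in WT-140, 8.56-fold in KO-826 and 7.45-fold in KO-850. The ratio of Mcpt1 to Mcpt2 was thus higher in both Usp25-/- mice than in both Usp25+/+ mice. The gap was narrow, since the ratio of WT-140 lay closer to that of KO-850 than to that of WT-139.

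Mcpt8, whose product is a granule protease of mouse basophils, was also abundant. It stood at 41.1 FPKM in WT-139, 17.8 FPKM in WT-140, 164 FPKM in KO-826 and 55.8 FPKM in KO-850. The groups did not overlap, but the gap was narrow: KO-850 was 1.36 times WT-139, whereas mice of the same genotype differed 2.31-fold in Usp25+/+ and 2.93-fold in Usp25-/-. The means were 29.4 ± 16.5 FPKM and 110 ± 76.2 FPKM (SD, n = 2), a log2 difference of 1.78 ± 0.66 (SE). That difference was 1.01 without KO-826 and 2.55 without KO-850. Mcpt8 was above Mcpt2 in WT-139 and below it in the other mice, with Mcpt2 at 0.447 times Mcpt8 in WT-139, 1.17 in WT-140, 1.02 in KO-826 and 1.42 in KO-850.

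**Figure D1:**
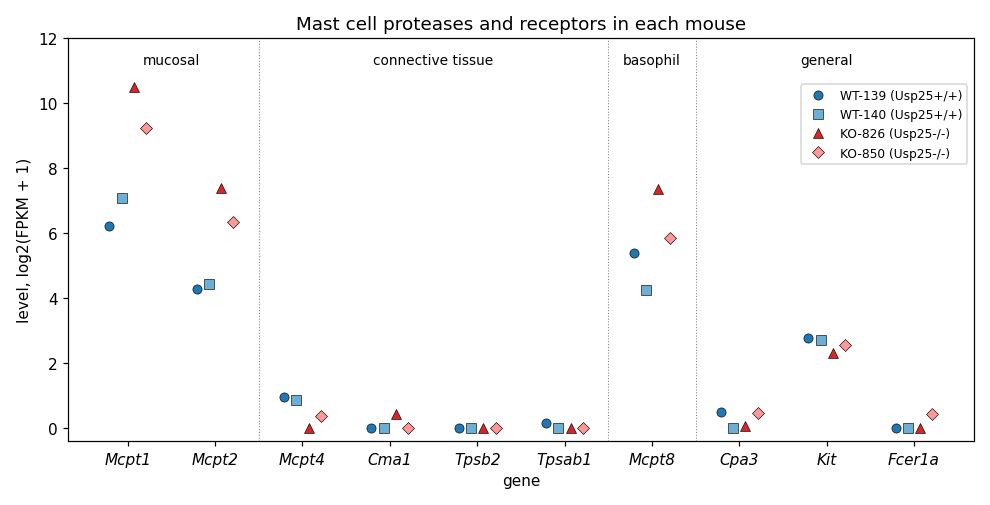
Vertical axis: log2(FPKM + 1) of each of the 10 genes. Horizontal axis: genes grouped by role, each mouse being a separate point. Mcpt1, Mcpt2 and Mcpt8 were higher in both Usp25-/- mice, Kit stayed between 3.98 and 5.85 FPKM, and the other 6 genes stayed below 1 FPKM.

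The connective tissue proteases were at or near 0 in both genotypes. Mcpt4, the chymase gene closest to Mcpt1 in sequence among those compared, stood at 0.934 FPKM in WT-139, 0.803 FPKM in WT-140 and 0.292 FPKM in KO-850 and was listed at 0 in KO-826. Cma1, which encodes the mast cell chymase mMCP-5, was listed at 0 in 3 mice and stood at 0.335 FPKM in KO-826. The tryptase gene Tpsb2 was listed at 0 in all 4 mice. Tpsab1, the other tryptase gene, was listed at 0 in 3 mice and stood at 0.107 FPKM in WT-139, and C57BL/6 mice are known to lack its protein.

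Summed over the 4 connective tissue proteases, the level was 1.04 FPKM in WT-139, 0.803 in WT-140, 0.335 in KO-826 and 0.292 in KO-850. The sum of Mcpt1 and Mcpt2 was 92.2, 154, 1594 and 672 FPKM in the same mice. The mucosal proteases were higher in both Usp25-/- mice, and the connective tissue sum was lower there, at levels where a value of 0 may be a failed estimate. None of the 4 connective tissue genes reached the level required for a test, an FPKM of 1 in at least 2 mice.

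The general markers were low in both genotypes. Kit, the receptor for stem cell factor, stood at 5.85 FPKM in WT-139, 5.55 FPKM in WT-140, 3.98 FPKM in KO-826 and 4.92 FPKM in KO-850, slightly lower in both Usp25-/- mice. Its means were 5.70 ± 0.208 FPKM and 4.45 ± 0.667 FPKM (SD, n = 2), a log2 difference of -0.30 ± 0.29 (SE). Cpa3, the mast cell carboxypeptidase gene, stood at 0.396 FPKM in WT-139, 0.0515 FPKM in KO-826 and 0.382 FPKM in KO-850 and was listed at 0 in WT-140. Fcer1a, the IgE-binding chain of FcεRI, was listed at 0 in 3 mice and stood at 0.338 FPKM in KO-850.

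Of the 10 genes, 4 passed the filter on low values. Both Usp25-/- mice were above both Usp25+/+ mice for 3 of these 4 and below them for Kit. Among all 12103 genes tested, 19.0% lay above and 14.7% below in this way, and limma called 0% of them at a Benjamini-Hochberg adjusted p of 0.05. By the unadjusted p of limma, 400 genes (3.30%) were under 0.05. Since the genotype comparison had pointed to Mcpt1 and Mcpt2, nothing is read from the members' count. In whole tissue, a change in the number of cells of a type and a change in RNA per cell cannot be told apart.

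Ranked by level, the order was Mcpt1, then Mcpt2 and Mcpt8, then Kit, then the 6 genes below 1 FPKM. Mcpt1 was above both Mcpt2 and Mcpt8 in every mouse. Mcpt2 and Mcpt8 did not differ beyond their spread, since their order turned between WT-139 and the other mice. The Mcpt1 share of the summed FPKM of all 10 genes was 52.5% in WT-139, 74.9% in WT-140, 81.0% in KO-826 and 80.7% in KO-850. Relative to Kit, Mcpt1 was 12.6-fold and 24.1-fold in the Usp25+/+ mice and 359-fold and 120-fold in the Usp25-/- mice.

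The abundant proteases share a chromosomal location. Mcpt1 (chr14:56636801-56639228, plus strand), Mcpt2 (chr14:56660960-56663471, plus strand), Mcpt4 (chr14:56678581-56681147, minus strand), Mcpt8 (chr14:56701003-56704053, minus strand) and Cma1 (chr14:56560290-56563498, minus strand) are protein-coding genes of the chymase locus in the mm9 build. The tryptase genes Tpsab1 (chr17:25480190-25482507) and Tpsb2 (chr17:25503486-25505804), Cpa3 (chr3:20115516-20142080), Kit (chr5:75970941-76052747) and Fcer1a (chr1:175151402-175157360) lie elsewhere. No other annotated gene overlaps any of the 10. Within the 321 kb from Cma1 to Gzmb, 15 serine protease genes were looked up in order.

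Levels alternated along the locus from Mcpt1 to Gzme, and outside this stretch all the genes except Gzmb stayed below 1 FPKM. At least 10 FPKM in all 4 mice was reached by 4 of the 15 genes, Mcpt1, Mcpt2, Mcpt8 and Gzme, and 10 of the 15 stayed below 1 FPKM in all 4, with Gzmf and Gzmg listed at 0 throughout. Genes below 1 FPKM lie between the abundant ones: Mcpt9 was at 0.277 FPKM or less between Mcpt1 and Mcpt2, Mcpt4 lies between Mcpt2 and Mcpt8, and Ctsg (cathepsin G) was at 0.359 FPKM or less between Mcpt8 and Gzme. Gzmb, the granzyme gene of cytotoxic lymphocytes at the far end, stood at 2.77 and 1.64 FPKM in WT-139 and WT-140, was listed at 0 in KO-826 and stood at 2.95 FPKM in KO-850.

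Gzme, which encodes granzyme E, stood at 15.2 FPKM in WT-139, 37.9 FPKM in WT-140, 119 FPKM in KO-826 and 94.7 FPKM in KO-850. Both Usp25-/- mice were above both Usp25+/+ mice, 2.50-fold at the nearest pair. Its log2 difference was 2.10 ± 0.49 (SE), with an unadjusted p of 0.00718 and a Benjamini-Hochberg adjusted p of 0.968 by limma, so it did not pass. It was called by limma without WT-140 (log2 difference 2.73, adjusted p = 0.0389), while under the other alternatives tried no companion gene of the lists described further on had an adjusted p below 0.758. Gzme shares 20.5% of its transcript's 50-base words exactly with another gene and 54.4% with up to 2 mismatches, and 94.2% of its coding bases match Gzmd, which stayed below 1 FPKM. The sources used here do not say how such reads were divided, so the Gzme level is uncertain.

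**Figure D2:**
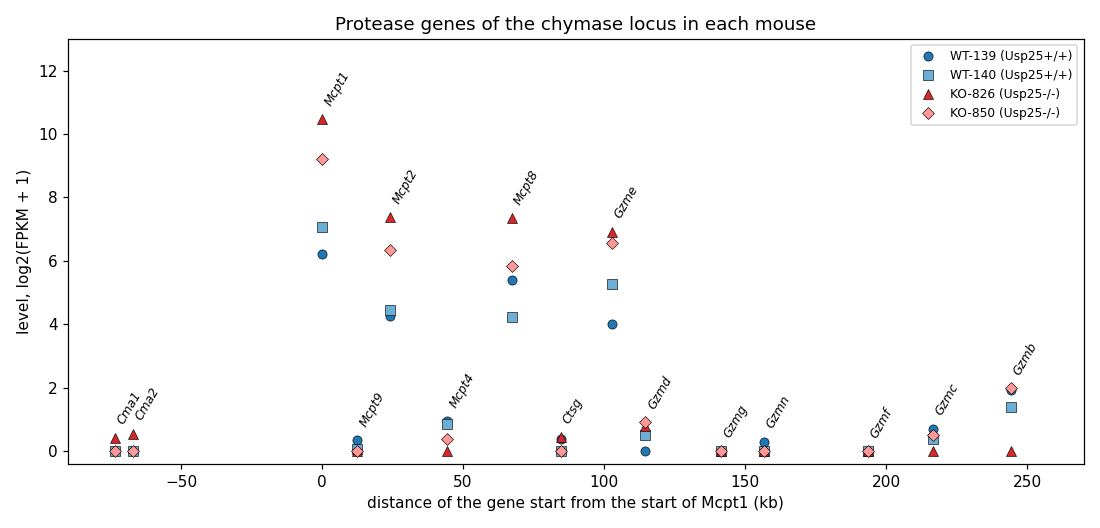
Vertical axis: log2(FPKM + 1) of 15 serine protease genes. Horizontal axis: distance of each gene's start from the start of Mcpt1 in kb, each mouse being a separate point. Mcpt1, Mcpt2, Mcpt8 and Gzme are at 10 FPKM or more in every mouse and the neighbours between them are below 1 FPKM.

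Sequence likeness between the chymase genes bears on how far their values are separate. The coding sequence of Mcpt1 matches that of Mcpt4 at 87.0% of aligned bases, that of Mcpt9 at 83.4% and that of Mcpt2 at 82.7%. No exact 50-base word of the Mcpt1, Mcpt2 or Mcpt8 transcript occurs in the transcript of another protein-coding gene of the Gencode mm9 annotation. Of the Mcpt4 words 6.16%, and of the Mcpt9 words 18.8%, did occur in such a transcript. The part of this sharing in the low Mcpt4 and Mcpt9 values was not tested. With up to 2 mismatches, and compared with the other members, Mcpt9, Gzmd and Gzme only, 12.7% of the Mcpt1 words, 9.98% of the Mcpt2 words and 0% of the Mcpt8 words had a partner. The sources used here give no read length, and shorter words would be shared at least as often.

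Companion genes of mast cells were listed by function or, for neighbours at the protease loci, by position. The lists were chosen with earlier results of these data known. They held 65 genes in all besides the members, and 39 passed the filter. Limma called 0 of the 39, against 0% of all genes tested. Its unadjusted p was under 0.05 for 2 of the 39, Gzme and Il33, and for 3.30% of all genes tested. The log2 difference was above 0 for 13 and below 0 for 26 (66.7%), with a median of -0.32. Over all 12103 genes 53.6% were above and 46.4% below, with a median of 0.03. Without KO-826, 20 of the 39 were above 0. The genotypes did not overlap for 7 genes higher in Usp25-/- mice (17.9%, near the background of 19.0%) and for 11 lower (28.2%, against 14.7%). The companion median was 0.0090 when KO-826 was left out, -0.14 without WT-139, -0.50 without KO-850, -0.10 with no filter and -0.21 with each library scaled to a common total.

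Genes of granule content and mediators gave 4 of 10 tested members with a log2 difference above 0 and 6 below it. Srgn, the proteoglycan core that holds granule proteases and is also made by other blood cells, stood at 5368 FPKM in WT-139 and at 335 FPKM in WT-140, 790 in KO-826 and 472 in KO-850. Hdc, the enzyme that makes histamine, stood at 287, 13.5, 39.0 and 23.5 FPKM in the same order. Both were highest in WT-139, the mouse with the most neutrophil transcripts, and the part of those cells in these values was not tested. Cd63, a granule membrane protein, stood at 557, 1043, 902 and 882 FPKM, and Alox5ap, a partner of leukotriene synthesis, at 504, 350.0, 308 and 319 FPKM.

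The IgE receptor signalling list gave 1 of 7 tested genes above 0 and 6 below. In the order WT-139, WT-140, then KO-826 and then KO-850, Fcer1g, the signalling chain that FcεRI shares with other Fc receptors, stood at 1177, 740, 654 and 659 FPKM. The kinase genes Lyn, at 151, 75.0, 73.4 and 77.1 FPKM, and Syk, at 128, 64.8, 41.4 and 51.4 FPKM, act downstream of it. By contrast Ms4a2, the receptor's beta chain and largely restricted to mast cells and basophils, did not exceed 0.133 FPKM. The macrophage markers leaned the same way: all 5 had a log2 difference below 0, with a median of -0.43. All 5 neutrophil markers were also below 0, but through WT-139 alone. For each of these neutrophil markers WT-140 lay below both Usp25-/- mice. Of the 5 macrophage markers, 2 (40%), Adgre1 and Csf1r, were lower in both Usp25-/- mice, against 14.7% of all genes tested. The others, Cd68, Marco and Mrc1, overlapped between the genotypes. The part of these cells in the values of this list was not tested. The shared signalling parts were abundant while the alpha and beta chains of the receptor were at or near 0.

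Among transcription factors, 1 of 5 tested genes lay above 0 and 4 below. Gata2, needed for mast cells and basophils, overlapped between the genotypes at 1.82 and 4.42 FPKM in Usp25+/+ and 1.67 and 4.34 FPKM in Usp25-/- mice. Gata1 did not exceed 0.149 FPKM. Mitf, at 4.78 to 10.4 FPKM, Stat5b, at 4.02 to 9.99 FPKM, and Runx1, at 13.7 to 20.8 FPKM, are also used by other cells.

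Surface receptors gave 1 of 5 tested genes above 0 and 4 below. Csf2rb, a receptor chain shared by several cytokines, stood at 68.0 to 153 FPKM and Cd33 at 27.5 to 185 FPKM, both highest in WT-139, and Il3ra, the alpha chain of the interleukin-3 receptor, at 6.39 to 12.9 FPKM. The mast cell receptors Mrgprb1 and Mrgprb2 did not exceed 0.181 and 0.290 FPKM. Il1rl1, the receptor for interleukin-33, stood at 0.777 to 1.66 FPKM and overlapped between the genotypes.

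Growth and homing factors gave 5 of 10 tested genes on each side. Il33, an epithelial alarmin that acts on mast cells, stood at 30.2 FPKM in WT-139, 35.2 FPKM in WT-140, 268 FPKM in KO-826 and 112 FPKM in KO-850. The groups did not overlap, with a log2 difference of 2.37 ± 0.49 (SE), an unadjusted p of 0.00401 and an adjusted p of 0.968 by limma. Il18, at 107 to 264 FPKM, and Tgfb1, the inducer of mucosal mast cell proteases, at 36.2 to 71.9 FPKM, overlapped between the genotypes. The mast cell cytokines Il9 and Il13 were listed at 0 in all 4 mice, and Il3 and Il4 did not exceed 0.0474 and 0.208 FPKM. Kitl, the ligand of KIT, stood at 2.53 and 3.08 FPKM in Usp25+/+ and 3.57 and 4.33 FPKM in Usp25-/- mice. Its log2 difference was 0.38 ± 0.30 (SE).

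None of the 5 tryptase locus neighbours was tested. Tpsg1 did not exceed 0.157 FPKM, and Prss34, a basophil tryptase, Prss28 and Prss29 were listed at 0 in all 4 mice. Of the calls among companion genes, those without WT-140 numbered 5 of 39 (12.8%), where limma called 1.38% of all genes. These were Gzme and Ltc4s, with log2 differences of 2.73 and 2.08, and Hdc, Cd33 and Cxcr2, with -3.20, -2.67 and -3.26. In that fit WT-139 was the only Usp25+/+ mouse and was assumed to vary like the Usp25-/- mice, and Cxcr2 is also 1 of the 5 neutrophil markers.

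**Figure D3:**
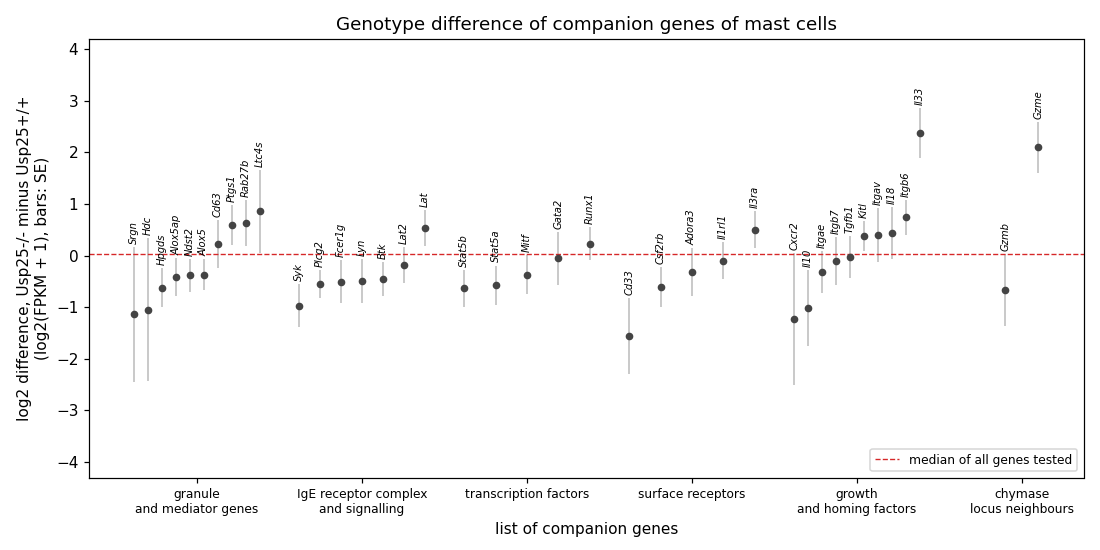
Log2 difference between genotypes (Usp25-/- minus Usp25+/+, on log2(FPKM + 1)) of the tested companion genes by list, with bars for the SE from limma and a dashed line at the median of all genes tested. Il33 and Gzme lie above 2 and most genes of the IgE receptor list lie below 0.

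Markers of other cells that could carry these transcripts were compared. Of 6 basophil markers, 4 stayed below 1 FPKM in all 4 mice, and Mcpt8 was the only one above 5 FPKM. Prss34 was listed at 0 throughout and Cd200r3 did not exceed 0.514 FPKM. Interstitial cells of Cajal also carry KIT in the gut, and Kit itself is 1 of the 5 markers listed for them. Of these 5, Hand1 was listed at 0, and the sum, Kit included, ran from 13.2 to 17.7 FPKM. Ano1, at 7.29 to 10.9 FPKM, was the highest of them.

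Macrophage markers were abundant, with a sum of 889 and 1285 FPKM in Usp25+/+ and 757 and 809 FPKM in Usp25-/- mice, led by Cd68, Mrc1 and Marco. Eosinophil markers summed to 76.1 to 137 FPKM, mostly from Ear1 and Siglecf. The other 4 of the 7 besides Ear6 stayed below 1 FPKM, namely Ccr3, Il5ra, and Prg2 and Epx, which encode granule proteins of eosinophils. The sums ran from 3.57 to 29.1 FPKM for 5 markers of NK cells and cytotoxic T cells, from 3.36 to 4.21 FPKM for 6 of type 2 lymphocytes and from 7.44 to 10.4 FPKM for 5 of smooth muscle, and each of these ranges overlapped between the genotypes. Limma called none of the markers tested in these lists, and their part in the members' values was not tested.

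The summed level of 10 colon epithelial markers moved with Mcpt1, at 12.04 and 16.9 FPKM in Usp25+/+ and 159 and 46.2 FPKM in Usp25-/- mice. This sum came mainly from Lgals4, a galectin of gut epithelium, Krt20, a keratin of mature epithelium, and Phgr1. Lgals4 stood at 7.04 and 9.83 FPKM in Usp25+/+ and 70.6 and 28.8 FPKM in Usp25-/- mice. For Krt20 the values were 4.31 and 3.11 FPKM in Usp25+/+, then 52.4 and 7.35 FPKM in Usp25-/-. Phgr1 was listed at 0 in WT-139 and stood at 3.81 FPKM in WT-140, 34.4 FPKM in KO-826 and 9.44 FPKM in KO-850. All 3, the only ones of the 10 to pass the filter, were higher in both Usp25-/- mice, as were 19.0% of all genes tested. The defining markers Zg16, Aqp8 and Cdx1 were listed at 0 in all 4 mice. The 8 lung epithelial markers also summed higher in both Usp25-/- mice. Their sum was 2273 and 4337 FPKM in Usp25+/+ and 5206 and 5210 FPKM in Usp25-/- mice. Of the 8, 6 had a log2 difference above 0 and 2 below. The genotypes did not overlap for 2 higher in Usp25-/- mice (25%, against 19.0% of all genes tested). The part of these epithelial signals in the Mcpt1 and Mcpt2 values was not tested.

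Genes whose profile over the 4 mice was most like that of Mcpt1 were ordered by the root mean square difference of log2(FPKM + 1) values, each gene centred on its own mean. Among tested genes other than the members, the 8 nearest were Gm5485 (0.16), Tff1 (0.30), Gm3776 (0.30), Gsta1 (0.31), Anxa10 (0.32), Prap1 (0.36), Guca2a (0.40) and Lgals4 (0.47). Mcpt2 lay at 0.43 from Mcpt1, Gzme at 0.66, Mcpt8 at 1.01 and Kit at 1.86. Of the 8 nearest genes, Tff1, a trefoil peptide, had the highest levels, at 71.3 and 105 FPKM in Usp25+/+ and 1848 and 759 FPKM in Usp25-/- mice. Anxa10, an annexin, had 4.001 and 6.68 FPKM in Usp25+/+, and 67.3 and 21.0 FPKM in Usp25-/- mice.

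For Mcpt2 the 5 nearest genes were Il33 (0.09), Lgals4 (0.15), Mia (0.18), Cdc42ep5 (0.24) and Gm3776 (0.25). For Kit they were Wee1 (0.0072), Scgb1c1 (0.013), Rnf44 (0.017), Wdhd1 (0.024) and Phc3 (0.024). The Kit values are small because genes with little variation all lie close together. With 4 mice, 2 of each genotype, and with Mcpt1 and Mcpt2 chosen for their genotype difference, such likeness is given as a description.

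**Figure D4:**
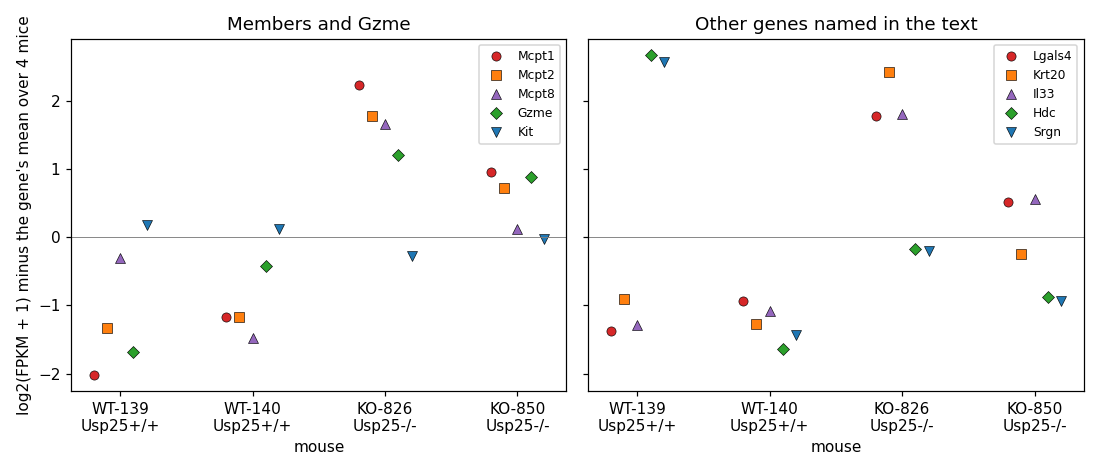
Vertical axis: log2(FPKM + 1) minus the gene's mean over the mice. Horizontal axis: the 4 mice, with 1 symbol per gene, for members and Gzme on the left and for other genes on the right. Mcpt1, Mcpt2 and Gzme are above their mean in both Usp25-/- mice, Kit varies little, and Hdc and Srgn are high in WT-139.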

How the data were processed

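The deposited table holds 1 FPKM value for each gene and mouse, with columns named after the sample titles. The authors' FPKM values are fragments scaled to transcript length and mapped fragments, and Bowtie 0.12.2 and mm9 are listed, with no role, per the submitters' processing notes. The sources used here do not give the tool that made the values, the annotation, strand or read length. The ratio of low values between libraries showed no clear step, so relative depth could not be read, and no counting interval is given.

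Symbols turned into dates (27) were left out, leaving 24394 genes. Genes with at least 1 FPKM in at least 2 mice were tested on log2(FPKM + 1) with limma 3.58.1 in R 4.3.3 (mean-variance trend, two-sided, no block, Benjamini-Hochberg adjustment across all genes tested, threshold 0.05). On simulated data the fit recovered the mean size of known changes but called few of the smaller ones, so a missing call does not show that a gene was unchanged. With 2 mice against 2, an exact permutation test cannot go below p = 0.333. The limma p-values rest only on these 4 mice, with the spread of each gene moderated toward the trend over all genes tested. Positions and transcripts came from Gencode on mm9, promoters from RefSeq on GRCm38.p6. Alignments used Biopython 1.88 and plots matplotlib 3.10.9.

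Members and lists were chosen with earlier results of these data known. All 10 members are named. Of the companion lists, the genes to name were those past the threshold, up to 3 with the highest mean FPKM and those listed at 0 throughout where a list is absent. Of the marker lists, they were up to 3 with the highest mean FPKM and defining markers at or near 0, and lists given as a sum name fewer. Genes most like Mcpt1, Mcpt2 and Kit are the nearest 8, 5 and 5 outside the members. Kitl, Il1rl1, Gata2, Hdc, Adgre1, Csf1r, the genes called without WT-140 and the companion genes near 0 were added after their values were seen. Pseudocount, filter, scaling and each mouse were varied as alternatives.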

Additional observations from a re-analysis of the deposited data

How the results depend on the processing

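Mcpt1, Mcpt2, Mcpt8 and Gzme kept a positive and Kit a negative log2 difference under a pseudocount of 0.1, no filter, a filter of 5 FPKM, a common total, median-of-ratios scaling and without each mouse in turn. The genotypes did not overlap for any of these genes, so neither the pseudocount nor leaving out a mouse could turn a sign. The filters do not enter these differences, so only the scalings could have turned a sign, and the kept signs are no support. Mcpt8 and Gzme were added to these alternatives after the data had been seen. With a mouse left out, the log2 difference ran from 2.56 to 3.83 for Mcpt1, 1.97 to 3.03 for Mcpt2, 1.01 to 2.55 for Mcpt8, 1.46 to 2.73 for Gzme and -0.43 to -0.18 for Kit. Limma called 0 genes under each alternative except without WT-140, where it called 163, so that leaving out a mouse gave 0 to 163. The number of genes with both Usp25-/- mice higher was 2304 with all mice and 3555 to 5434 with a mouse left out, since fewer samples must then be in order. Without a filter 22 of 58 companion genes had a log2 difference above 0, in place of 13 of 39, and with a mouse left out 13 to 20 did. The median over companion genes was -0.32 with all mice, reversed to 0.0090 without KO-826 and was -0.50 without KO-850, -0.14 without WT-139, -0.10 with no filter and -0.21 with a common total. With the depth unknown, how far values below 1 FPKM differ from 0 is unknown too. The labels give no replicate numbers that could pair the mice.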
